A study of Bombus terrestris audax with 20 samples.

Results

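Late-instar female larvae of the bumblebee Bombus terrestris audax were compared between the castes they would become: queen-destined larvae (LQ) and worker-destined larvae (LW), both in instar 4, the last before pupation. These are 6 of the 17 mRNA-seq libraries analysed here, 3 of LQ (LQ1, LQ2 and LQ4) and 3 of LW (LW1, LW2 and LW3), chosen by their labels, and all 14817 deposited features were measured in each of them. Every library was made from whole bodies of 10 to 12 larvae of a single colony, pooled. The larvae came from commercial colonies: queen-destined larvae from queenless colonies, whose queen had been removed, and worker-destined larvae from queenright colonies, whose queen was kept. No LQ library shares a colony with any LW library, so caste, the presence of the queen and colony cannot be told apart. The early-instar (EQ, EW) and mid-instar (MQ, MW) libraries are used below to place the late values. Together with the late libraries they also set the spread of each feature in the statistical fit. The mid libraries enter the test of a change from mid to late larvae as well.

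In bumblebees, as in other eusocial insects, queens and workers develop from the same female genome, and the path a larva takes depends on the queen, on feeding and on hormones. Juvenile hormone, made by the corpora allata, holds larval character and acts through the transcription factor Krüppel homolog 1, while ecdysteroids time the moults. Late larvae feed heavily before they spin a cocoon: midgut proteases and lipases digest the meal, the fat body stores protein as hexamerin, and cytochrome P450 enzymes oxidise hormones, lipids and plant compounds.

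Abundances are reads per feature after the authors equalised the libraries in depth, corrected for feature length and quantile-normalised, and have no absolute unit. The median abundance was 118 in each late library after this normalisation. A feature is identified by the sequence, start and end of its span in the Bter_1.0 assembly, and a leading u marks one of 4812 transcripts outside the annotation, against 10005 annotated features. A product name could be attached to 451 features (3.04% of all), taken from a list that mostly holds features higher in EQ than in EW (420 of the 451), so most features that differed in late larvae stand here without a name.

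Of the late libraries, LW1 stood apart. Its mean absolute log2 difference to its nearest late library was 0.34, against 0.22 to 0.27 for the other late libraries, and it lay nearer to the mid-instar means (0.33 to MQ and 0.35 to MW) than the others did (0.46 to 0.58). In LW1 alone, 302 features lay more than 1 log2 unit above every other late library, and for 300 of them the mid-instar mean was higher too. The same count was 2 to 24 in the other late libraries. Among these features was cuticle collagen 2C-like, at 808 in LW1 against 25.4 to 94.2 in the other late libraries. Only 11 features were listed at 0 in LW1, against 90 to 153 elsewhere. A second split crossed the castes: the short transcript uNW_003568514.1_1_229 was at 1898 in LQ2 and 1000 in LW2 but between 104466 and 136800 in the other late libraries, and LW2 was the late library nearest to LQ2. Values without these libraries are given beside the counts and beside several of the genes named below.

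Whole larvae hold every tissue, and the tissue markers were present in both castes. Summed abundances overlapped between the castes for muscle markers (2022 to 2372 in LQ and 1624 to 2818 in LW), neuronal markers (209 to 231 and 202 to 226), fat body markers (2647 to 5626 and 4273 to 5082), epidermal markers (491 to 999 and 774 to 2180, the highest being LW1) and markers of ciliated cells (247 to 324 and 291 to 328). The sum of 5 midgut markers was 68560 to 127019 in LQ and 45422 to 74374 in LW, also overlapping. Most of it came from chymotrypsin-1-like and trypsin 3A1-like. All 5 had a log2 difference toward LQ, from 0.18 for carboxypeptidase B-like to 3.23 for chymotrypsin-2-like, the only 1 called. No marker was at 0 in all late libraries, and 1 epidermal marker, cuticle protein 2-like, was at 0 in some of them. In whole-body libraries, more cells of a tissue and more RNA per cell cannot be told apart.

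**Figure D1:**
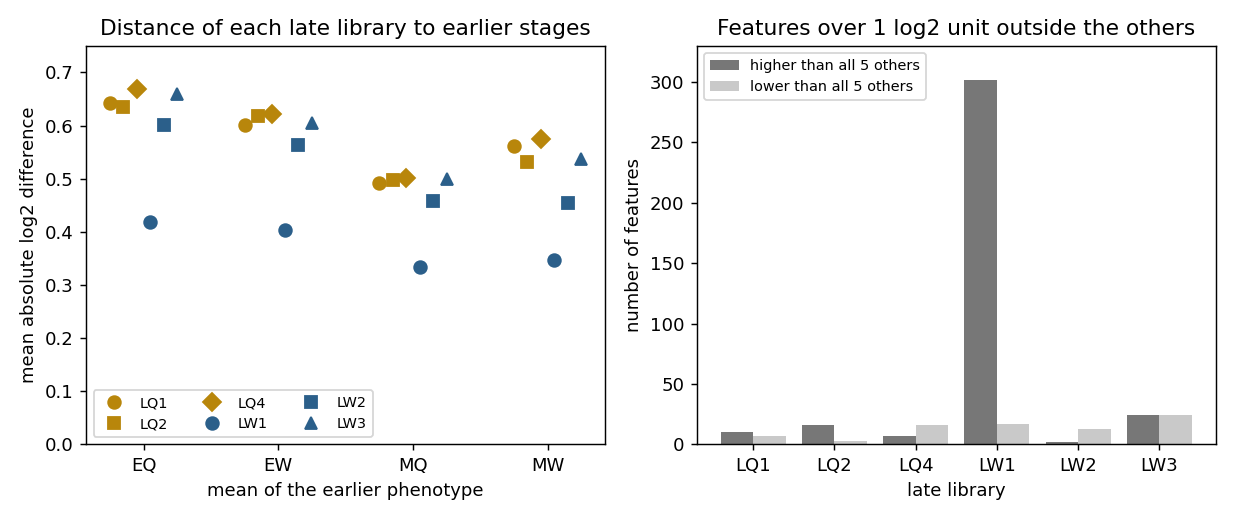
Left, mean absolute difference in log2(abundance + 20) over all features between each late library (gold LQ, blue LW) and the mean of each earlier phenotype, and right, bars for the number of features in which a late library lay more than 1 log2 unit above (dark) or below (light) every other late library. LW1 lay nearest to each earlier phenotype and had 302 features above the others, against 2 to 24 in the other libraries.

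With all 6 libraries, more features were higher in LQ than in LW by each criterion, but the excess of non-overlapping features was gone without LW1. With limma on log2(abundance + 20), where the offset of 20 is the study's own and understates the change of low features, 475 features (3.21% of those tested) were higher in LQ and 199 (1.34%) were higher in LW at an adjusted p under 0.05. By the study's rule that the 3 values of each caste must not overlap, 1976 features (13.3%) were higher in LQ and 1432 (9.66%) in LW, and without LW1 the counts were 2679 and 2685. The offset fold change (OFC) is the log2 ratio of the lowest value of the higher caste to the highest value of the other, each plus 20, and it exceeded 1 for 40 features in LQ (0.27%) and 14 in LW (0.0945%). The OFC rule uses these same libraries and carries no test. Most differences were small: the median absolute log2 difference was 0.17 over all features, 0.65 among those called in LQ and 0.65 among those called in LW. Caste accounted for 33.7% of the variance among the late libraries, where 20% is expected from random grouping (exact permutation p = 0.1, the smallest that 3 libraries against 3 allow).

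How many features passed depended on the libraries that set the spread. The limma calls fell to 20 in LQ and 7 in LW when the spread was estimated from the late libraries alone. Without LQ1 they were 214 and 65, without LQ4 312 and 120, without LW2 302 and 97, and without LW1 280 and 201, of which 256 and 104 were among the original calls.

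**Figure D2:**
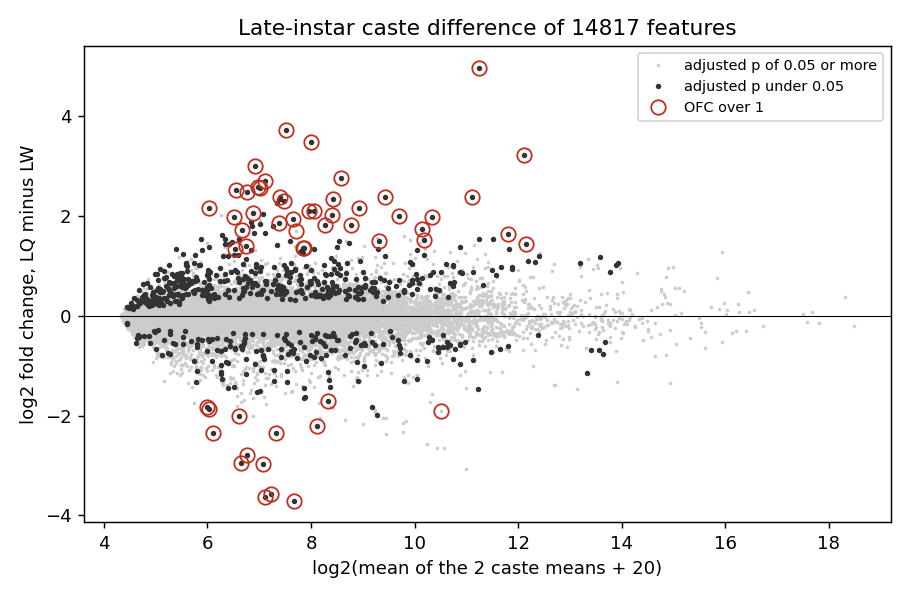
Late log2 difference, LQ minus LW on the log2(abundance + 20) scale, against log2 of the mean of both caste means plus 20, with 1 point per feature, dark where limma gave an adjusted p under 0.05 and ringed where the OFC exceeded 1. The 475 features called higher in LQ lie above 0 and the 199 called higher in LW below it.

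Of the features with a product name, chymotrypsin-2-like had the largest late difference. Chymotrypsin-2-like (LOC105665851, NC_015767.1_10624627_10627639), a serine protease of the digestive type, was at 6843, 8269 and 8626 in the LQ libraries and at 618, 826 and 1083 in the LW libraries. Every LQ library was thus above every LW library, with a mean of 7913 ± 943 (SD, n = 3) against 843 ± 233, a 9.39-fold difference of the means. The limma log2 difference was 3.23 (SE 0.27, adjusted p = 3.52e-05), and it passed the threshold in every alternative run. In early and mid larvae the gene was at 302 to 696 in both castes, and every LQ value was far above that range. The primers with which its transcript was followed by quantitative PCR are shown 5′ to 3′, with no part in capitals, since they identify the transcript measured.
chymotrypsin-2-like forward: tggtgattccggtggtcctt
chymotrypsin-2-like reverse: tcgcgtgtagaccgatggata
The gene lies inside the span of another feature, NC_015767.1_10428321_10672051, which also had an OFC over 1, so reads of the pair may be shared.

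The highest OFC of the stage (3.69) belonged to NC_015771.1_3137226_3141484. It is called Plrp2-like here, after a pancreatic lipase relative, a member of a family of lipid-digesting enzymes. The identifier itself carries no name in the tables used, and the name is an inference from the study's naming of the gene that led the OFC order in LQ. Its abundance was 3633, 5360 and 4920 in LQ1, LQ2 and LQ4 and 264, 65.3 and 109 in LW1, LW2 and LW3. The castes did not overlap and the limma log2 difference was 4.97 (SE 0.86, adjusted p = 0.00643), with an adjusted p of 0.0614 when LQ2 and LW2 were both left out. The gene had been higher still in mid-instar queen-destined larvae (17655 ± 4920, SD, n = 3), while MW was at 27.8 and 203. It is overlapped by NC_015771.1_3045554_3144288.

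The other 6 digestive proteases with a name did not pass the test. Dipeptidase 1-like (NW_003565655.1_777_5359) was at 193, 220 and 235 in LQ and 127, 169 and 124 in LW, without overlap (log2 difference 0.57, adjusted p = 0.055, or 0.0416 without LW2), and aminopeptidase N had a log2 difference of 0.36 (adjusted p = 0.101), also without overlap. For the abundant trypsin 3A1-like (0.55, adjusted p = 0.44) and chymotrypsin-1-like (0.56, adjusted p = 0.453) the castes overlapped. LQ2 held the highest value of both enzymes. Over the 7 proteases the median log2 difference was 0.55, beside 0.02 over all features, with 1 called and 3 not overlapping, all higher in LQ, beside 3.21% called and 13.3% not overlapping in that direction over all features.

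Cytochrome P450 6k1-like (LOC100650427, NW_003568878.1_25_931), a member of a family linked in insects to the oxidation of foreign compounds, was at 76.6, 230 and 114 in LQ and at 0.99, 21.3 and 0 in LW. All LQ values were above all LW values, although the LQ libraries differed among themselves by more than the LW mean, and the log2 difference was 2.52 (SE 0.29, adjusted p = 0.000407). It was listed at 0 in every early library and did not exceed 2.5 in any mid library, so it was detected almost only in the last instar. Cytochrome P450 4C1-like was at 948, 1230 and 962 in LQ and 397, 728 and 828 in LW and missed the threshold (log2 difference 0.72, adjusted p = 0.0654), while its mean had been 7.83 to 10.5 in the earlier phenotypes. The other two named P450s, 303a1 and the ecdysteroid-synthesis enzyme 307a1-like, had log2 differences of -0.18 (adjusted p = 0.611) and -0.05 (adjusted p = 0.872), and their castes overlapped. The sign of the 307a1-like value turned without LW1 (0.07).

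**Figure D3:**
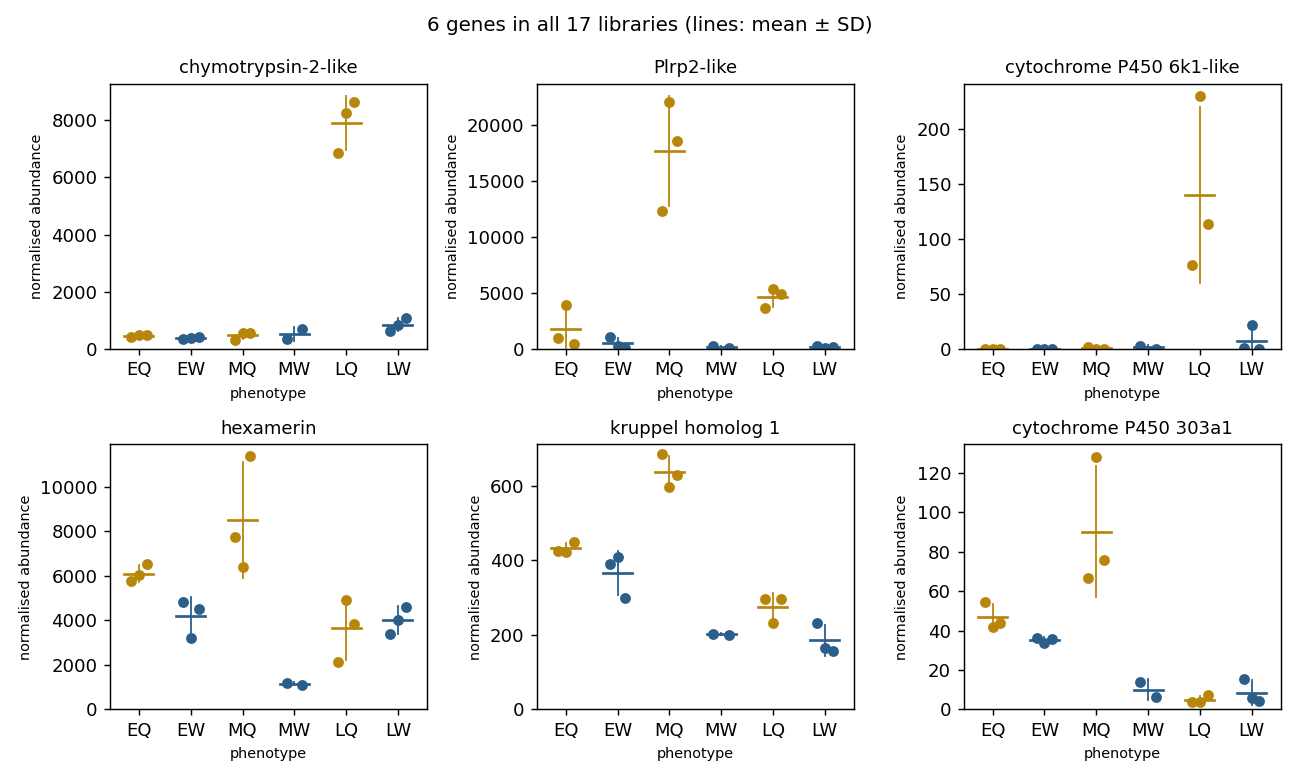
Normalised abundance of 6 genes in all 17 libraries by phenotype on linear axes, each point a library (gold queen-destined, blue worker-destined), with lines for the mean and SD of 3 libraries (2 in MW). Chymotrypsin-2-like and cytochrome P450 6k1-like had the castes far apart in late larvae and at like levels before, whereas hexamerin, cytochrome P450 303a1 and kruppel homolog 1 were apart in mid larvae and overlapped in late larvae.

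Of the 40 features with an OFC over 1 in LQ, 33 were annotated and 7 were not, 39 were also called by limma, and 2 had a product name that is characterised (chymotrypsin-2-like and cytochrome P450 6k1-like). The remaining feature, NC_015763.1_6338074_6346801, was at 258 to 325 in LQ and 61.7 to 116 in LW (adjusted p = 0.0892). Their OFC ran from 1.00 to 3.69 with a median of 1.30, and the next feature below the rule was at 0.99. For 30 of the 40, every LQ library was above every early and mid library, and for 25 of these 30 the LW mean also exceeded the MW mean. The OFC rule itself asks for a high lowest LQ value, and no share over all features was computed for these counts. Of the 40, 20 differed in the same direction without overlap in mid larvae and 4 in the opposite one, where 25.1% of all features were higher in MQ without overlap and 17.4% in MW, which has only 2 libraries. At the early stage 3 and 1 did, beside 5.51% of all features higher in EQ and 9.02% in EW.

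Several of the features with the highest OFC had much lower means at the earlier stages. NC_015773.1_10266169_10268122, which carries no product name here, was at 188, 454 and 326 in LQ and 0.38, 10.8 and 3.26 in LW, and its mean was under 3 in each earlier phenotype (0.41 to 2.53). Its log2 difference of 3.73 (SE 0.22, adjusted p = 2.81e-06) had the smallest p of all features. NC_015769.1_7563046_7568254 was at 3332, 3566 and 4058 in LQ and 469, 715 and 928 in LW (log2 difference 2.39, SE 0.20, adjusted p = 3.52e-05), against means of 28.3 to 47.9 before. Both castes were above the earlier means, LQ further than LW. NC_015772.1_5395367_5397934 showed the same order, at 453, 638 and 863 in LQ, at 54.7, 105 and 72.9 in LW, and at means of 10.6 to 18.0 earlier (log2 difference 2.77, SE 0.20, adjusted p = 1.67e-05). NW_003565557.1_44006_46418 was at 352, 539 and 354 in LQ and at 61.1, 87.8 and 90.6 in LW (log2 difference 2.11, SE 0.24, adjusted p = 0.000365), against earlier means of 34.3 to 51.3.

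Other features held a caste difference that was already present in mid larvae. NW_003566526.1_1902_3818 was at 441, 419 and 481 in LQ and 40.0, 13.6 and 15.4 in LW, and at 259 ± 64.4 (SD, n = 3) in MQ against 26.0 ± 18.6 (SD, n = 2) in MW. The late log2 difference was 3.49 (SE 0.34, adjusted p = 0.00011). NC_015764.1_10165373_10181599 was at 178 to 207 in LQ, 7.86 to 36.6 in LW, 224 ± 40.9 in MQ and 37.2 ± 18.0 in MW (late log2 difference 2.57, adjusted p = 0.00033). The unannotated uNC_015774.1_5145354_5146192 was at 234, 282 and 309 in LQ and 50.4, 38.9 and 30.1 in LW (2.31, adjusted p = 0.000926), and was higher in the queen-destined mean at each earlier stage as well. The change of the caste difference from mid to late did not pass the test for these features (adjusted p = 0.402, 0.629 and 0.248).

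The features with an OFC over 1 were often neighbours. With features within 100000 bases joined, the 54 features formed 41 stretches, of which 9 held more than 1, and 17 of the 40 LQ features shared a stretch. A pair of stretches held 4 features each. On NC_015764.1 between 10165373 and 10258688 all 4 were higher in LQ. On NC_015771.1 between 3045554 and 3167718, the Plrp2-like feature and its LQ neighbours lay beside NC_015771.1_3163864_3167718, which was higher in LW: it was at 121, 137 and 132 in LQ and 566, 483 and 375 in LW (log2 difference -1.71, SE 0.19, adjusted p = 0.000366). Features in a stretch are not independent: 12 of the 40 overlapped another feature, and reads that map to several places were counted at each. NC_015771.1_3045554_3144288 holds the Plrp2-like feature within its span, and NC_015767.1_10428321_10672051 holds chymotrypsin-2-like. Likewise NC_015769.1_4790925_4844239 holds NC_015769.1_4820898_4822627. All of these outer and inner features are among the 40, so the same reads may be counted there more than once.

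**Figure D4:**
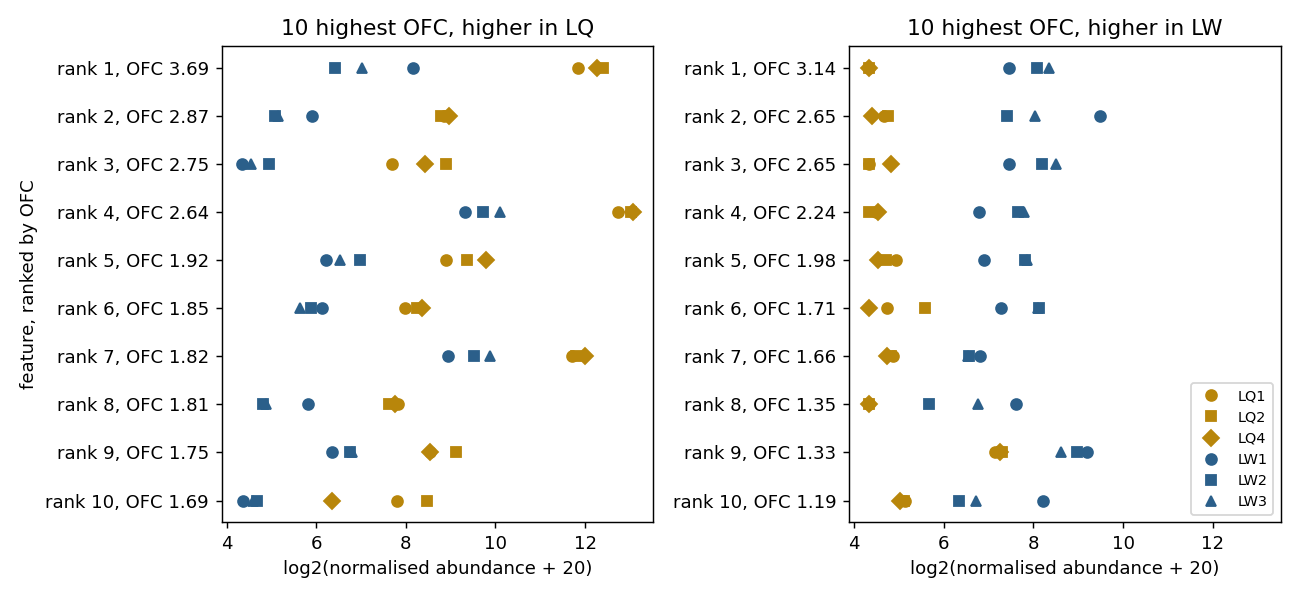
Level in each late library, as log2(normalised abundance + 20), of the 10 features with the highest OFC in LQ (left) and the 10 in LW (right), in order of OFC, gold for LQ and blue for LW. The caste ranges do not overlap, as the rule requires, and among the LW features LW1 was the lowest LW library for the 5 short transcripts that varied alike and the highest for the other 5.

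Of the 14 features with an OFC over 1 in LW, 10 were unannotated and 4 annotated, none had a product name, and 13 were called by limma. Their OFC ran from 1.02 to 3.14 with a median of 1.51. None was above every early and mid library in LW. For 7 of them LQ lay below every earlier library, for 9 LQ was under 20 in each library, and 2 were at 0 throughout LQ. Here the rule favours low LQ values, and these counts have no share over all features beside them. The LW annotated feature not called by limma, NW_003566591.1_148357_151275, was at 4487 in LW1 but 1294 and 1306 in LW2 and LW3 (adjusted p = 0.166).

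A set of 5 of these short transcripts varied alike. Highest in OFC was uNC_015771.1_9108635_9108849, at 0 in each LQ library and at 157, 250 and 307 in LW, followed by uNW_003565415.1_68987_69283 at 0, 0 and 8.15 in LQ and 157, 274 and 341 in LW. With uNW_003565415.1_73539_74047, uNW_003566045.1_104220_104817 and uNW_003570464.1_639_925 their pairwise Pearson r over the 17 libraries was 0.93 to 0.99, given as a description since these libraries share normalisation and the transcripts may share reads. The 5 were picked among the highest OFC in LW, so part of their likeness across the late libraries follows from that choice. All 5 had their lowest LW value in LW1. Early libraries of both castes held them at 24.4 to 171 and mid libraries at no more than 51.0, and late worker-destined larvae were at 89.5 to 341. The limma log2 differences ran from -3.64 (adjusted p = 0.000428) for uNC_015771.1_9108635_9108849 and -3.57 (adjusted p = 0.00041) for uNW_003565415.1_68987_69283 to -2.80 (adjusted p = 0.000898) for uNW_003566045.1_104220_104817. The other two were at -2.95 (adjusted p = 0.000407) and -2.97 (adjusted p = 0.00107).

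The remaining LW features near the top of the order were more variable. The neighbours NC_015773.1_6839121_6841995 and uNC_015773.1_6836828_6837290 were at 700, 150 and 241, and at 175, 31.2 and 88.1, in LW1, LW2 and LW3, and at 0 to 6.96 in LQ. Their adjusted p of 0.0352 and 0.0394 passed the threshold, but both calls were lost when LW1, or any of most other single libraries, was left out. uNC_015764.1_6688167_6688610 was steadier, at 91.6, 74.3 and 72.5 in LW and 6.71 to 9.24 in LQ (log2 difference -1.82, SE 0.32, adjusted p = 0.0069), and had been at 212 ± 104 (SD, n = 2) in MW and 18.7 ± 13.9 (SD, n = 3) in MQ. uNW_003566082.1_14813_15171 was at 275, 60.6 and 86.1 in LW and 12.3 to 15.3 in LQ (adjusted p = 0.00602).

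Among features with a product name, limma called 23 higher in LQ (5.1% of 451) and 4 higher in LW (0.887%). The caste ranges were apart for 96 in LQ (21.3%) and 22 in LW (4.88%). These names come mostly from features higher in EQ, so the excess toward LQ is not independent of that choice. Most of the differences were under 1 log2 unit.

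The named LQ calls included genes known for roles in signalling. MAP kinase-activating death domain protein, an exchange factor for Rab GTPases in vertebrates, was at 30.3, 41.4 and 32.3 in LQ and 7.23, 13.7 and 10.5 in LW (log2 difference 0.84, SE 0.08, adjusted p = 9.45e-05), and held its call without any single library. MOB kinase activator-like 1, which belongs to a family that activates kinases of the Hippo growth pathway, was at 695, 640 and 651 in LQ and 391, 469 and 555 in LW (0.49, SE 0.10, adjusted p = 0.0157). RING finger protein 11, linked to ubiquitin transfer, had a log2 difference of 0.51 (adjusted p = 0.0223), and the kinases serine/threonine-protein kinase 32A and Btk29A, a Tec-family tyrosine kinase, of 0.73 (adjusted p = 0.0248) and 0.49 (adjusted p = 0.029). Each of these 5 was non-overlapping between the castes, but MOB kinase activator-like 1 lost its call without LQ1 (adjusted p = 0.0712), and each of the last 3 did so without any 1 of 4 libraries. Protein big brother-like, in Drosophila the partner of Runt-family transcription factors, was at 40.0, 60.1 and 29.2 in LQ and 16.3, 24.7 and 17.8 in LW (0.65, adjusted p = 0.0165), and its call was lost without LQ1 or LW1.

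Further named LQ calls had other known roles or none. Bicaudal D, an adaptor that links cargo to dynein, was at 289, 253 and 278 in LQ and 201, 203 and 195 in LW (log2 difference 0.41, SE 0.08, adjusted p = 0.00932). Cold shock domain-containing protein E1, an RNA-binding regulator of translation, was at 1171, 1089 and 1085 in LQ and 850, 824 and 787 in LW (0.43, SE 0.09, adjusted p = 0.0133, but 0.0635 without LQ1). The means differed 1.37-fold and 1.36-fold, and the castes did not overlap for either gene. Carbonic anhydrase 2-like, which hydrates carbon dioxide, was at 17.3, 34.1 and 15.1 in LQ and 1.07, 4.96 and 3.53 in LW (0.84, SE 0.14, adjusted p = 0.00469). The conserved UPF0692 protein CG33108, of unknown function, was at 754, 720 and 706 in LQ and 442, 456 and 436 in LW (0.68, SE 0.07, adjusted p = 0.000177), and FERM domain-containing protein 5 at 9.24 to 11.5 in LQ and 4.10 to 6.34 in LW (0.27, adjusted p = 0.00314). Other named LQ calls were closer to the threshold: CUGBP Elav-like family member 2 (adjusted p = 0.0162), the kinase named DDB_G0282963 (0.0408), brefeldin A-inhibited guanine nucleotide-exchange protein 1 (0.045) and the adhesion protein calsyntenin-1 (0.0476).

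Neuropeptide Y receptor, a receptor for a feeding-related peptide family, was at 14.5, 21.1 and 4.34 in LQ and 0.33, 1.17 and 1.10 in LW, and at a mean under 0.5 in every earlier phenotype (log2 difference 0.64, adjusted p = 0.0115, but 0.0534 without LQ1). It contains NC_015772.1_3772353_3775563, a feature of the LQ top 10 at 203, 333 and 62.1 in LQ and 0.45, 5.50 and 3.87 in LW. This inner feature spans 3211 of the receptor's 44422 bases, and its reads may also count for the receptor. The late libraries of each caste had the same order in both, so the receptor's call is not read as a signal of its own. Myophilin, a calponin-family muscle protein, was at 483 to 519 in LQ and 362 to 402 in LW (0.38, adjusted p = 0.0401). It was the only called gene of 11 muscle genes, and the call was lost without any one of the 6 libraries.

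On the LW side, flagellar attachment zone protein 1, a name transferred from trypanosomes to a gene of unknown role here, was at 148, 135 and 132 in LW and 74.7, 74.6 and 38.4 in LQ (log2 difference -0.97, SE 0.17, adjusted p = 0.00643), and it kept its call without any single library. Both MQ and MW were close to the LW level (136 ± 21.8 and 141 ± 27.3), so it was LQ that lay below. The remaining 3 are regulators. Sister of odd and bowel, a zinc-finger factor of leg and gut patterning in Drosophila, was at 14.0 to 17.7 in LW and 9.05 to 10.8 in LQ (-0.29, adjusted p = 0.0252), and toll, a receptor of innate immunity, at 52.9 to 55.1 in LW and 27.3 to 47.9 in LQ (-0.46, adjusted p = 0.0477). Hormone receptor 4-like, a nuclear receptor of the ecdysone cascade in Drosophila, was near the floor, at 2.71 to 3.06 in LW and 0.45 to 0.92 in LQ (-0.15, adjusted p = 0.0477). The calls of these 3 regulators were each lost without any of 4 or more of the libraries, and toll and hormone receptor 4-like overlap other features.

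Krüppel homolog 1, the target of juvenile hormone, fell just short of the threshold in late larvae, and hexamerin did not pass. Krüppel homolog 1 was at 296, 232 and 296 in LQ and 233, 166 and 156 in LW, with LQ2 and LW1 at nearly the same level (log2 difference 0.54, SE 0.14, adjusted p = 0.0528). It passed without LW1 (adjusted p = 0.0136), without LQ2 (0.0338), with the library set as a term (0.0232), with colony as a random block (0.0471) and with library weights (0.00115), and not without any 1 of the other 4 late libraries (0.121 to 0.169), with the late libraries alone (0.254) or with the replicate number as a block (0.103). Hexamerin, the larval storage protein, was at 2143, 4938 and 3833 in LQ and 3384, 4025 and 4626 in LW (-0.21, SE 0.28, adjusted p = 0.703). LQ1 held the lowest hexamerin value, and without it the sign of the difference turned (0.13, adjusted p = 0.834).

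A change of the caste difference between mid and late larvae was tested directly as the late difference minus the mid difference. It passed for 366 features (2.47%), 211 toward LQ and 155 toward LW, of which 22 had a product name. The colonies of LQ1, LQ2, LQ4, LW2 and LW3 also gave the mid libraries, and with colony as a fixed term 121 features passed. The short transcript that split the late libraries was low in MW2 and MW3 (1384 and 1356) and in MQ2 (3932). It was high in MQ1 and MQ4 (192525 and 226105). With a term for this split 279 features passed. MW has only 2 libraries, and the count ran from 60 without MW3 and 81 without MW2 through 163 without MQ4 to 1147 without MQ2. Among the late libraries, it was 159 without LQ1 and 200 without LW2.

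Hexamerin gave one of the clearest changes. Its mean was 8515 ± 2590 in MQ and 1157 ± 60.9 in MW, and 3638 ± 1408 in LQ and 4012 ± 621 in LW, so that queen-destined larvae were higher in mid larvae and the castes overlapped in late larvae (change of the log2 difference -3.03, SE 0.42, adjusted p = 0.00428). Cytochrome P450 303a1, named for a Drosophila enzyme of sensory-bristle development, followed the same course, from 90.2 ± 33.3 in MQ and 10.0 ± 5.20 in MW to 4.88 ± 2.05 and 8.55 ± 6.15 in LQ and LW (-2.03, SE 0.28, adjusted p = 0.00428). Golgin-84, a Golgi structural protein (-1.03, adjusted p = 0.00428), estradiol 17-beta-dehydrogenase 2, a steroid-modifying enzyme (-1.40, adjusted p = 0.00561), and MOXD1 homolog 1, a copper monooxygenase (-1.40, adjusted p = 0.0105), were also higher in MQ than MW and had no difference called by limma late. Golgin-84 (90.6 to 93.5 in LQ, 95.3 to 97.9 in LW) and MOXD1 homolog 1 (51.9 to 59.9 and 63.9 to 93.7) were nevertheless higher in LW without overlap. Krüppel homolog 1 changed by -1.03 (adjusted p = 0.0293), from 636 ± 44.4 in MQ and 202 ± 2.58 in MW, but not with colony as a fixed term (adjusted p = 0.0541). The change also failed to pass without LQ2, MQ1, MQ4, MW2 or MW3 (adjusted p up to 0.107).

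The opposite change was that of chymotrypsin-2-like (3.33, SE 0.40, adjusted p = 0.00273), whose mid values overlapped between the castes. Cytochrome P450 6k1-like (2.55, adjusted p = 0.0119), MAP kinase-activating death domain protein (0.59, adjusted p = 0.0236), UPF0692 protein CG33108 (0.47, adjusted p = 0.0371) and FERM domain-containing protein 5 (0.27, adjusted p = 0.0379) changed in the same direction, and their adjusted p exceeded 0.05 with colony as a fixed term (0.051 to 0.0871). Of 11 fits that each left out 1 library, these calls were lost in 2, 2, 9 and 7, in the same order.

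**Figure D5:**
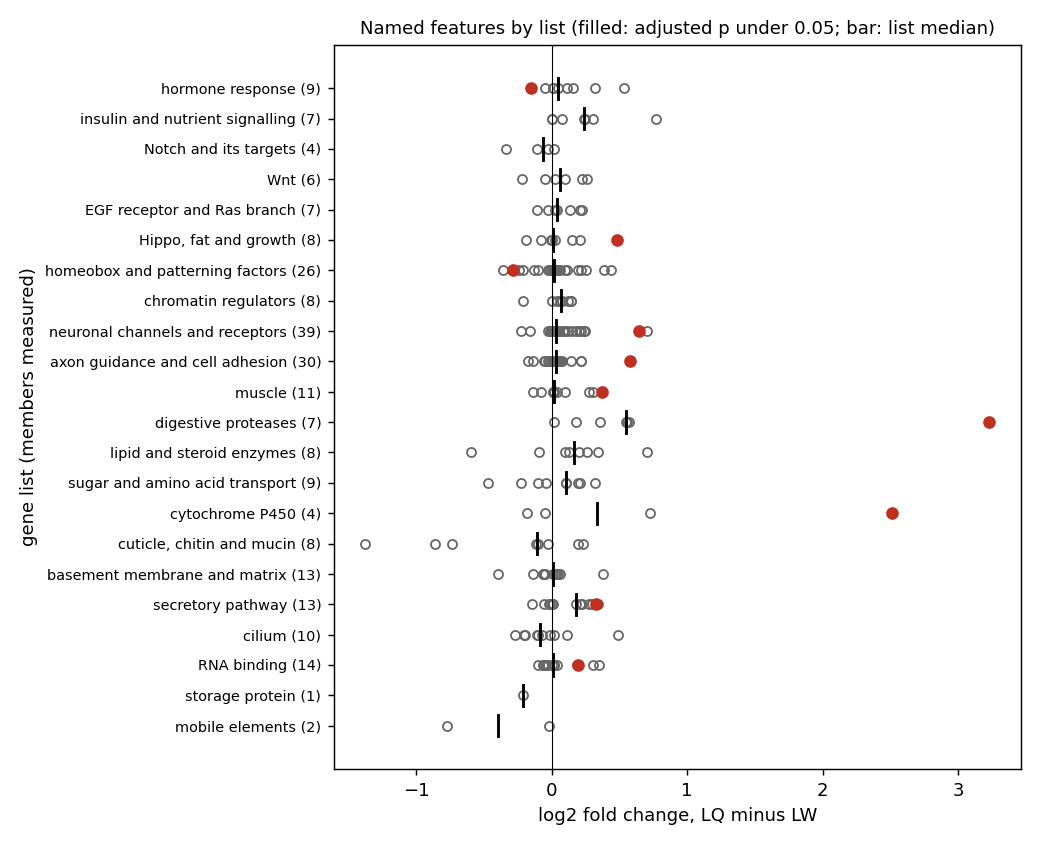
Late log2 difference, LQ minus LW on the log2(abundance + 20) scale, of the members of each gene list, 1 circle per member, filled where limma gave an adjusted p under 0.05, with a bar at the list median. Most members lie between -0.5 and 0.5, and no list has more than 1 called member in either direction. Only features with a product name are in the lists.

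Across 22 lists grouped by function, no list held more than 1 called member in either direction. The lists hold only features with a product name (3.04% of all), so unnamed members of a family are missing from them. The study counts 5 cytochrome P450 genes among its features with an OFC over 1 in LQ, of which 1 has a name here. Over all features 3.21% were called in LQ and 1.34% in LW. Of 7 genes of insulin and nutrient signalling, none was called and 5 were higher in LQ without overlap (beside 13.3% of all features and 21.3% of those with a product name), with a median log2 difference of 0.24. They included protein charybde-like, in Drosophila an inhibitor of the TOR growth pathway (843, 932 and 463 in LQ, 357, 423 and 461 in LW, adjusted p = 0.0892), the ribosomal protein S6 kinase beta-1-like (0.25, adjusted p = 0.171) and the growth regulator Myc (0.24, adjusted p = 0.189). Of 9 hormone-response genes, 1 was called in LW (hormone receptor 4-like) and 2 were higher in LQ without overlap, a share close to that of all features with a product name (21.3%). The 13 genes of the secretory pathway had a median of 0.18 with 1 called in LQ, and the 8 genes of lipid and steroid enzymes a median of 0.17 with none called.

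The developmental lists lay close to the median of all features. For the calls below, 3.21% of all features were called in LQ and 1.34% in LW, and of those with a product name 5.1% and 0.887%. A single call in a list of such size is not read as a trait of the list. The 26 homeobox and patterning factors had a median of 0.02 with 1 called in LW, the 39 neuronal channels and receptors 0.03 with 1 in LQ, and the 30 genes of axon guidance and adhesion 0.03 with 1 in LQ. The neuronal call was that of neuropeptide Y receptor, which contains another LQ feature. Hippo, fat and growth (8 genes, 1 called in LQ), RNA binding (14, 1 in LQ), EGF receptor and Ras (7), Wnt (6), chromatin (8) and basement membrane (13) had medians from 0.01 to 0.07. Below 0 were Notch (4 genes, -0.06), cilium (10, -0.09), mobile elements (2, -0.40) and cuticle, chitin and mucin (8, -0.11), with no call, and in the last of these cuticle collagen 2C-like and signaling mucin MSB2 were high in LW1 alone. Sugar and amino acid transport (9 genes) had a median of 0.11 with no call. The 4 cytochrome P450s with a product name had 0.34 with 1 called in LQ, and the 11 muscle genes 0.02 with 1 in LQ.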

How the data were processed

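Per the study's methods, the authors sequenced the libraries as single-end 50-base reads, subsampled all to the size of the smallest (LW1), aligned them with PatMaN to Bter_1.0 allowing 1 mismatch and keeping reads that map to several places, corrected for feature length and quantile-normalised. The deposited values are thus a normalised abundance signal, not counts. The original depth of each library cannot be read from them, so no counting interval is given. The authors left out 3 of the 20 libraries, of which 1 was late (LQ3), and no authors' comparison columns were used.

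All 17 libraries were fitted with limma 3.58.1 in R 4.3.3, with an intensity trend, on log2(abundance + 20) with 6 phenotype means, leaving 11 residual degrees of freedom. P-values were adjusted by Benjamini-Hochberg over all 14817 features, with a threshold of 0.05. The fit was also run on simulated data with independent noise in each library, without a colony effect or an outlying library. Its outcome is not given here, and no result above rests on it. Replicates within a phenotype are pools from separate colonies, but most colonies gave libraries at several stages. The colonies of LQ1, LQ2, LW1, LW2 and LW3 also gave early libraries. The main fit treats all 17 libraries as independent, and with colony as a random block the late calls were 472 in LQ and 192 in LW.

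Named features were the 10 of highest OFC per caste, up to 15 called features per caste with a product, up to 4 members of each described list by p, genes the study treats as of interest, and 5 products per direction for the change from mid to late. The members and lists were chosen with earlier results of these data known. Names were read from the study's supplementary list, matched by identifier (616 of 1054 lines) or by identifier with a leading u (438). Deviations of mid and late libraries of 1 colony correlated at 0.01 to 0.38. LQ and LW share 2 replicate numbers but no colony, so the labels do not pair them, although deviations correlated at 0.16 for LQ1 with LW1 and 0.36 for LQ2 with LW2. Alternatives were other offsets, filters, thresholds, spreads, blocks and left-out libraries.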

Additional observations from a re-analysis of the deposited data

Results flagged for a closer look

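For 22 features chosen to be named here, with or without a product name, the caste difference changed between mid and late larvae. They passed the test of that change (limma, adjusted p under 0.05), which is what singled them out. They are not the same set as the 22 with a product name counted above. Toward queen-destined larvae, the changes of the log2 difference were 3.75 for NC_015773.1_10266169_10268122, 3.33 for chymotrypsin-2-like, 3.01 for NC_015772.1_3772353_3775563, 2.55 for cytochrome P450 6k1-like, 2.48 for NC_015772.1_5395367_5397934, 2.19 for NC_015769.1_7563046_7568254, 2.03 for NW_003565557.1_44006_46418, 0.59 for MAP kinase-activating death domain protein, 0.47 for UPF0692 protein CG33108 and 0.27 for FERM domain-containing protein 5. Toward worker-destined larvae, they were -3.39 for uNC_015771.1_9108635_9108849, -3.03 for hexamerin, -2.81 for uNW_003565415.1_68987_69283, -2.68 for uNW_003565415.1_73539_74047, -2.37 for uNW_003566045.1_104220_104817, -2.03 for cytochrome P450 303a1, -1.40 for estradiol 17-beta-dehydrogenase 2, -1.40 for MOXD1 homolog 1, -1.36 for NC_015771.1_3163864_3167718, -1.03 for golgin-84, -1.03 for kruppel homolog 1 and -0.74 for protein toll. Of the 22, 8 passed under every alternative counted for the change that gave them a value: NC_015773.1_10266169_10268122, chymotrypsin-2-like, NC_015772.1_5395367_5397934, NC_015769.1_7563046_7568254, golgin-84, hexamerin, cytochrome P450 303a1 and estradiol 17-beta-dehydrogenase 2. None of the alternatives counted for the change left out LQ2 and LW2 together. Most of the others lost the call without MW2 or MW3.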

How the results depend on the processing

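The limma counts (475 in LQ, 199 in LW) and the count of changes from mid to late (366) moved with the settings. They were 204, 121 and 187 among features with a mean of at least 100, 138, 41 and 31 at a threshold of 0.01, and 1399, 1281 and 1813 with weights estimated for each library. With late libraries alone the limma counts were 20 and 7, and with LQ2 and LW2 left out 237 and 78. A term for the library set that splits the short transcript gave 315 in LW, and colony as a random block gave 713 changes. Leaving out 1 library at a time gave 214 to 544 in LQ, 65 to 240 in LW and 60 to 1147 changes. With the replicate number as a block, 347 features passed in LQ (285 of them shared with the unblocked calls), 141 in LW (110 shared) and 322 for the change, and with colony as a fixed replicate block 121. The non-overlapping counts were 1041 in LQ at a mean of at least 100, 3743 and 2786 without LQ2 and LW2, and 2474 to 3144 in LQ and 1829 to 2685 in LW without 1 library. The OFC counts were 70 in LQ and 41 in LW with an offset of 1, 143 and 74 at an OFC of 0.5, 9 in LW with an offset of 50, 4 in LW among annotated features, and 47 to 67 in LQ and 18 to 31 in LW without 1 library. Counts without overlap or past an OFC rise when a library is left out because fewer values must be apart. Of 42 called features that were chosen to be named here, with or without a product name, 25 kept the call without each single late library. In every setting that gave them a value, 14 kept it. In 2 named features that were not called the sign turned: cytochrome P450 307a1-like, at 0.023 with library weights and -0.12 to 0.073 without 1 late library, and hexamerin, at -0.47 to 0.13 without 1 late library. The cause of these shifts was not tested.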

Other observations

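Further features were picked out after their values were seen. The unannotated uNC_015777.1_4620388_4620973, which the study's list links by sequence similarity to a fringe glycosyltransferase mRNA, was at 131, 135 and 137 in LQ and 38.7, 39.0 and 38.4 in LW, the caste means differing 3.47-fold with little spread within either caste (log2 difference 1.40, SE 0.22, adjusted p = 0.00421 with limma). The uncharacterised LOC100646544 (NC_015770.1_12905435_12907153), which the same list links to odorant binding protein 19d, was at 201, 232 and 67.0 in LQ and 6.34, 17.5 and 8.72 in LW. Some named genes were high in LW1 alone: mediator of RNA polymerase II transcription subunit 15 was at 308 in LW1 and at 17.0 to 27.4 in the other late libraries, and phospholipase A1 was at 138 in LW1 and at 2.11 to 15.2 elsewhere, beside mid-instar means of 62.4 to 104.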
